A study of Mus musculus with 16 samples.

Results

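The dual-specificity phosphatase genes Dusp1, Dusp2, Dusp4, Dusp5, Dusp6, Dusp7, Dusp10, Dusp16 and Dusp22 were taken by symbol from a table of normalized RNA-seq read counts, where they are 9 of 27928 genes. The libraries came from follicular (FO) B cells, sorted from mouse spleen as CD21lo CD23hi, and from marginal zone (MZ) B cells, sorted as CD21hi CD23lo. Each subset was taken from wild-type (WT) C57BL/6 mice and from mice with the genotype Gtf2i fl/flxCD19cre+ (cKO), also labelled C57BL/6, at 8 to 12 weeks of age and with no treatment given, and each of the 4 groups has 2 libraries. In cKO mice a Cre recombinase driven in B cells acts on floxed Gtf2i, so that the gene of the transcription factor TFII-I is removed in cells of the B lineage. The WT mice are not labelled as carrying Cre or floxed alleles, so the loss of Gtf2i and the presence of Cre cannot be told apart here. Nothing states whether the 2 libraries of a group came from separate mice or how many mice were pooled, so the p-values measure only the spread between these libraries, which may be technical.

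Dual-specificity phosphatases remove phosphate from both the threonine and the tyrosine that switch on a MAP kinase, and so turn off ERK, JNK and p38 signalling. Several are themselves induced by the signal that they end, which makes them negative feedback regulators downstream of the B cell receptor, CD40 and Toll-like receptors. By where they act and on what, the typical family members fall into a nuclear inducible set (Dusp1, Dusp2, Dusp4, Dusp5), a cytoplasmic set that acts on ERK (Dusp6, Dusp7) and a set that prefers JNK and p38 (Dusp10, Dusp16), while Dusp22 is a small atypical member that lacks the domain for docking MAP kinases.

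The sequence before the transcription start was looked at because some of the genes are known to be induced through elements there. RefSeq promoter sequences on GRCm38.p6 were matched for 8 of the 9 genes, all but Dusp4. The upstream stretches of 3 genes with different patterns are printed 5′ to 3′ on the strand of the gene, from 250 to 51 bases before the start. For Dusp1 no difference between the subsets was called, Dusp5 was higher in FO over both genotypes and Dusp16 was higher in MZ. In Dusp1 and Dusp5 the capitals mark the cAMP response element TGACGTCA or its 7-letter form TGACGTC, the E-box CACGTG and the CArG box, the element that serum response factor binds. In Dusp16, which had none of these, they mark the GC box GGGCGG, with overlapping matches run together. GC boxes also lie in the printed stretches of Dusp1 and Dusp5, where they are left in lower case.
Dusp1, chr17:26508523-26508722, minus strand: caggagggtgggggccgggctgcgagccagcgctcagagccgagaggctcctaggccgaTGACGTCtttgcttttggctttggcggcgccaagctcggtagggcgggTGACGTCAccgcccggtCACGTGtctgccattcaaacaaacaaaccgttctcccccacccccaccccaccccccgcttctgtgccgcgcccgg
Dusp5, chr19:53528895-53529094, plus strand: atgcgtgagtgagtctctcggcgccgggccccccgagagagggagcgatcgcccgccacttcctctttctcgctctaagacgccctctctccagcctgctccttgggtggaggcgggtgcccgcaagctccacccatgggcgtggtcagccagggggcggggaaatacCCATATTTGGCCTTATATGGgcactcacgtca
Dusp16, chr6:134792679-134792878, minus strand: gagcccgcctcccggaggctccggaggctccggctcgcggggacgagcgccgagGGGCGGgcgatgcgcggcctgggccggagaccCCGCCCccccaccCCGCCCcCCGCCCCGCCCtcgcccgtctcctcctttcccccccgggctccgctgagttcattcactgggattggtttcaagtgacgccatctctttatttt

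The motifs were searched on both strands in the 250 bases before the start. Among the 8 genes TGACGTCA was found in Dusp1 alone, and 1.55% of 32851 promoters of the same length hold it. TGACGTC was also found in Dusp1 alone, against 2.78% of all promoters, and every match to TGACGTCA holds it too. The 2 places lie 191 to 185 and 143 to 136 bases before the start. The CArG box was found in Dusp5 alone, where 2 copies adjoin each other from 82 to 63 bases before the start, and 1.47% of promoters hold it. CACGTG was found in Dusp1 and Dusp2, against 6.02% of promoters. GGGCGG was found in 6 of the 8 genes, against 32.7%, and the AP-1 site TGANTCA, which 6.75% of promoters hold, was in none of these windows.

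The targeted gene was looked at first. Gtf2i had 2040 and 1992 (WT) and 1523 and 1531 (cKO) normalized counts in FO libraries, against 2864 and 2471 (WT) and 1782 and 1889 (cKO) in MZ libraries. Within each subset both cKO libraries lay under both WT libraries, with log2 differences, cKO minus WT, of -0.40 in FO and -0.54 in MZ that were not called (limma, adjusted p = 0.989 and 0.363). Whether the counts include exons outside the deleted part is not stated. Of the sorting markers, Cr2 (CD21) had 22942 to 26803 normalized counts in FO and 86953 to 97087 in MZ, and Fcer2a (CD23) had 24802 to 41973 in FO and 3069 to 6708 in MZ, so both fit the labels. The libraries held 21546552 to 25083552 reads on genes. The cKO MZ replicate 1 library stood apart, since its summed normalized count over 10 granulocyte markers was 1879 against 24 to 105 in the other 7 libraries, and over 6 erythroid markers 13304 against 26 to 1007. In the same 2 lists Ctsg, Ly6g, Prtn3 and Hba-a2 were among those at 0 in some library. Summed T cell markers ranged from 807 to 1362, most of it Lck, and Cd3e and Cd8a were at 0 in some library. Summed macrophage markers ranged from 728 to 1309 in FO and from 897 to 2007 in MZ. Their median log2 difference, FO minus MZ, was -0.45 in WT and -0.96 in cKO. In each genotype 1 of 10, Cd68, was called higher in MZ and 0 higher in FO, where 7.41% (WT) and 8.18% (cKO) of all tested genes were called higher in MZ. Summed dendritic cell markers ranged from 946 to 1114, most of it Bst2 with 682 to 811 in FO and 558 to 652 in MZ. The median log2 difference of the 7 tested was -0.35 in WT, where 0 were called, and -0.83 in cKO. In cKO Flt3 was called higher in MZ and Cd209a, with 40.9 counts or fewer, higher in FO, where 8.18% and 5.54% of all tested genes were. Flt3 had 302 and 286 in cKO MZ, 150 and 114 in WT MZ and 96.1 to 158 in FO. The 6 B cell markers summed to 190383 or more in every library. The part of these other cells in the results was not tested. Since the samples are bulk RNA, fewer cells with a transcript and less of it per cell cannot be told apart.

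The question of the main comparison was how the phosphatases differ between FO and MZ B cells, and whether the difference is alike with and without Gtf2i. Dusp16 was higher in MZ than in FO cells in both genotypes, by 4.78-fold in WT and 4.72-fold in cKO. Dusp4, Dusp7 and Dusp10 were higher in FO cells in cKO, by 5.45-fold, 1.90-fold and 2.85-fold. In WT the same genes had folds of 4.15, 1.68 and 1.69 towards FO that did not pass the test. Averaged over both genotypes Dusp2 and Dusp5 were also higher in FO, by 1.502-fold and 2.02-fold. These calls, and those of Dusp4, Dusp7 and Dusp10 in cKO, were lost in some of the alternative fits, as given below for each gene. For Dusp1, Dusp6 and Dusp22 no difference was called.

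A gene was called when limma on log2(normalized count + 1) gave an adjusted p (Benjamini-Hochberg, over the 14761 genes tested) no larger than 0.05 and the change was at least 1.5-fold. All 9 phosphatases passed the filter on low counts. In WT, 0 of 9 were called higher in FO, where 4.62% of all tested genes were, and 1 of 9 higher in MZ, where 7.41% were. By edgeR the same number was called. By DESeq2 2 were called higher in FO, as were 737 of all tested genes. With the replicate number as a block, a number whose meaning no label gives, 3 were called higher in FO, as were 789 of all tested genes. Of the 9, 4 had an unadjusted limma p under 0.05, as did 4469 of the 14761 genes tested. In cKO, 3 of 9 were called higher in FO against 5.54% of all tested genes, and 1 of 9 higher in MZ against 8.18%, while 5 of the 9 and 4933 of all tested genes had an unadjusted p under 0.05. Over both genotypes 5 were called higher in FO and 1 in MZ, against 7.45% and 10.9%. The values of the FO and MZ libraries did not overlap for 6 of the 9 genes in WT, against 55.3% of all tested genes, for 6 in cKO, against 65%, and for 4 when all 4 FO libraries were set against all 4 MZ libraries, against 36.5%. The median log2 difference, FO minus MZ, of the 9 genes was 0.60 in WT and 0.57 in cKO, while over all tested genes it was 0.00 in both. Exact permutation of 2 libraries against 2 cannot reach a p under 0.333, so genes were not tested singly in that way.

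**Figure D1:**
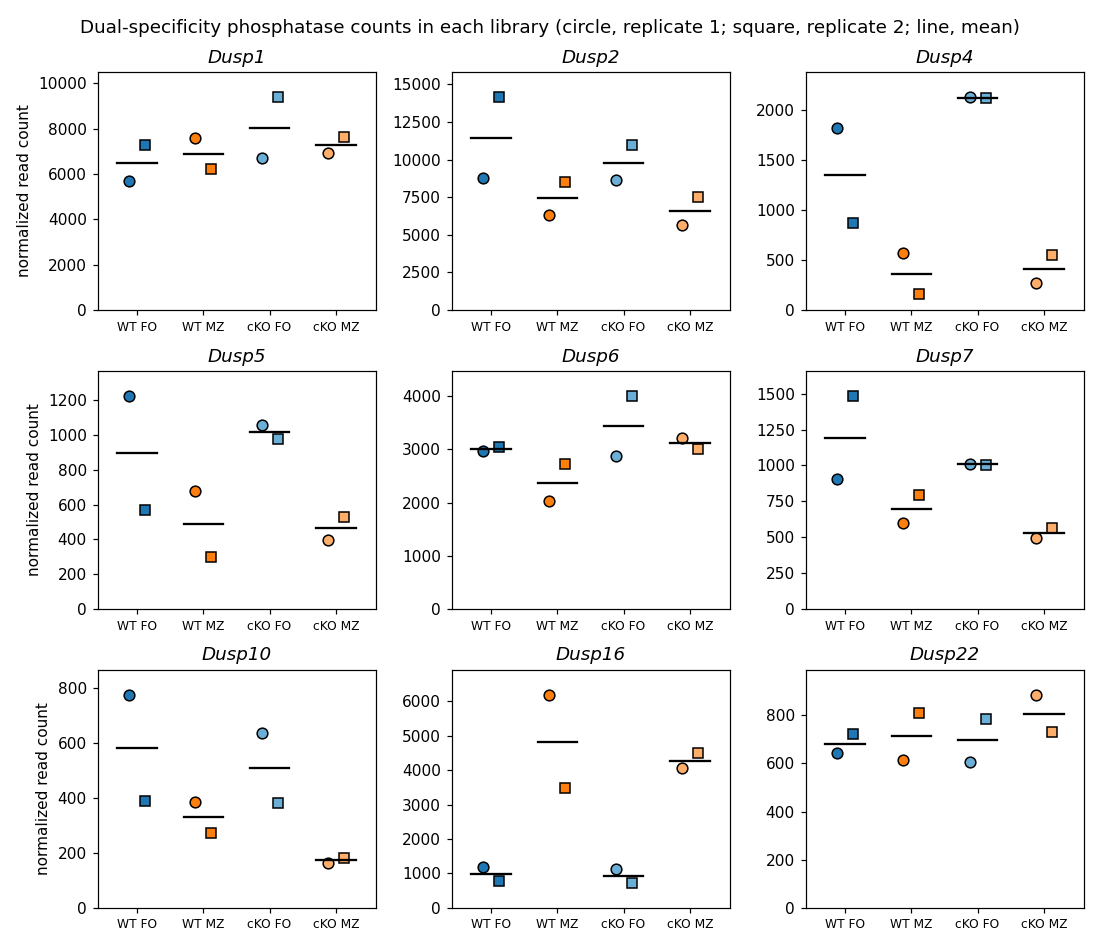
Normalized read count (vertical axis, from 0) of each of the 9 genes in the 8 libraries, by group on the horizontal axis; circles are replicate 1, squares replicate 2 and lines the mean of the 2. Dusp16 lies between 719 and 1197 in the FO libraries and between 3469 and 6180 in the MZ libraries, while the Dusp1 and Dusp22 groups overlap.

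Among the nuclear inducible phosphatases Dusp1, also called MKP-1, is an immediate early gene that acts mainly on p38 and JNK. It lies on the minus strand at chr17:26505590-26562128 (GENCODE M21, GRCm38). The printed stretch before its RefSeq start lies within this span, so the sources differ on where the gene starts. Its normalized counts were 5709 and 7297 (WT) and 6700 and 9373 (cKO) in FO libraries, against 7599 and 6202 (WT) and 6925 and 7643 (cKO) in MZ libraries. The groups overlapped in both genotypes. The log2 difference, FO minus MZ, was -0.09 ± 0.19 (SE) for WT (limma, adjusted p = 0.802) and 0.12 ± 0.19 for cKO (adjusted p = 0.692), with 95% intervals of -0.53 to 0.35 and -0.31 to 0.56, and the sign of the cKO value turned with quantile normalization. Exons annotated to Dusp1 overlap exons of Ergic1 on the other strand, which had 576 to 1033 normalized counts, and whether counting used strand is not stated.

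Dusp2, or PAC-1, is a phosphatase found mostly in blood cells and induced in activated lymphocytes, and lies at chr2:127336159-127338376. It had 8801 and 14129 (WT) and 8617 and 10942 (cKO) normalized counts in FO libraries, against 6351 and 8488 (WT) and 5671 and 7533 (cKO) in MZ libraries. Every FO library lay above every MZ library, the lowest FO value (8617) by little over the highest MZ value (8488). Over both genotypes the log2 difference was 0.59 ± 0.18 (limma, adjusted p = 0.0402), a change of 1.502-fold that sits at the fold threshold. It was lost when genes with low counts were kept (adjusted p = 0.0584), under quantile normalization and TMM factors, and without any of 6 of the 8 libraries (adjusted p from 0.000698 to 0.139 over all alternatives). Within WT and within cKO it was 0.60 ± 0.26 and 0.57 ± 0.26 and was not called (adjusted p = 0.160 and 0.166).

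Dusp4, or MKP-2, is known to act on ERK and JNK in the nucleus and lies at chr8:34807297-34819894. Its normalized counts were 1820 and 872 (WT) and 2122 and 2112 (cKO) in FO libraries, against 567 and 161 (WT) and 271 and 554 (cKO) in MZ libraries. Each FO library lay above each MZ library, and the WT libraries of one group differed among themselves by up to 1.81 on the log2 scale. The log2 difference was 2.45 ± 0.60 in cKO (limma, adjusted p = 0.0271) and 2.05 ± 0.60 in WT (adjusted p = 0.0554, not called). The call in cKO was lost when any cKO library was left out (adjusted p from 0.0545 to 0.179), with log2 differences of 1.93 to 2.96. The WT difference was called without WT MZ replicate 1, at 2.96 (adjusted p = 0.0122, in a range of 0.00363 to 0.236 over all alternatives). Over both genotypes it was 2.25 ± 0.43 (adjusted p = 0.00548), and was called in all 16 alternative fits.

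Dusp5 is a nuclear phosphatase that acts on ERK alone and lies at chr19:53529109-53542431. It had 1222 and 567 (WT) and 1057 and 975 (cKO) normalized counts in FO libraries, against 680 and 297 (WT) and 399 and 529 (cKO) in MZ libraries. FO and MZ libraries overlapped in WT and were apart in cKO. Its log2 differences were 0.89 ± 0.44 (WT) and 1.14 ± 0.44 (cKO), neither called (limma, adjusted p = 0.222 and 0.111), and 1.02 ± 0.31 over both genotypes (adjusted p = 0.0389). That last call was lost with genes of low counts kept (adjusted p = 0.0560) and without any of 6 of the 8 libraries, in a range of 0.00244 to 0.128 over all alternatives. The antisense gene AC137853.2, which overlaps its exons, had at most 7.98 normalized counts.

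Of the cytoplasmic phosphatases for ERK, Dusp6, or MKP-3, is a transcriptional target of ERK signalling and lies at chr10:99263231-99267489. It had 2977 and 3048 (WT) and 2871 and 4001 (cKO) normalized counts in FO libraries, against 2032 and 2724 (WT) and 3216 and 3010 (cKO) in MZ libraries. The WT groups were apart and the cKO groups overlapped. The log2 difference was 0.36 ± 0.18 for WT (limma, adjusted p = 0.232) and 0.12 ± 0.18 for cKO (adjusted p = 0.678), where the value was -0.0046 after quantile normalization.

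Dusp7, the close relative of Dusp6, lies at chr9:106368632-106375724. Its normalized counts were 906 and 1482 (WT) and 1012 and 1004 (cKO) in FO libraries, against 599 and 797 (WT) and 496 and 563 (cKO) in MZ libraries. All FO libraries lay above all MZ libraries. The log2 difference was 0.93 ± 0.23 in cKO (limma, adjusted p = 0.0282) and 0.75 ± 0.23 in WT (adjusted p = 0.0671, not called). Without any one cKO library the cKO call was lost at log2 differences of 0.84 to 1.02 (adjusted p from 0.0902 to 0.165), and without WT FO replicate 1 the WT difference was called, at 1.10 (adjusted p = 0.0149, in a range of 0.00922 to 0.253). Over both genotypes it was 0.84 ± 0.16 (adjusted p = 0.00632) and was called in all 16 alternative fits.

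The phosphatases that prefer JNK and p38 had opposite signs. Dusp10, or MKP-5, lies at chr1:184013302-184075636 and had 773 and 388 (WT) and 636 and 382 (cKO) normalized counts in FO libraries, against 384 and 273 (WT) and 162 and 183 (cKO) in MZ libraries. The WT groups were apart only by 388 against 384, whereas the cKO MZ libraries were the lowest of the 8. The log2 difference was 1.51 ± 0.36 in cKO (limma, adjusted p = 0.0240) and 0.76 ± 0.36 in WT (adjusted p = 0.205, not called). The cKO call was lost without cKO FO replicate 1, cKO MZ replicate 1 or cKO MZ replicate 2 (adjusted p = 0.153, 0.138 and 0.0914), with log2 differences of 1.15, 1.43 and 1.60. Over both genotypes the difference was 1.14 ± 0.25 (adjusted p = 0.0115) and was called in all 16 alternative fits.

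Dusp16, or MKP-7, is known to shuttle between nucleus and cytoplasm and lies on the minus strand at chr6:134715468-134792625. It had 1197 and 782 (WT) and 1135 and 719 (cKO) normalized counts in FO libraries, against 6180 and 3469 (WT) and 4049 and 4494 (cKO) in MZ libraries. The lowest MZ library lay far above the highest FO library. The log2 difference, FO minus MZ, was -2.26 ± 0.32 for WT (limma, adjusted p = 0.00357) and -2.24 ± 0.32 for cKO (adjusted p = 0.00324), with 95% intervals of -3.01 to -1.505 and -2.99 to -1.49. It was called in both genotypes in each of the 17 alternative fits, with log2 differences from -2.67 to -1.84 in WT and from -2.57 to -1.91 in cKO. Without cKO MZ replicate 1, the library with granulocyte and erythroid transcripts, Dusp16 was the 1 phosphatase still called in cKO (limma log2 difference -2.31, adjusted p = 0.0276, in a range of 9.7e-13 to 0.0312 over all alternatives), as it was without cKO MZ replicate 2 or cKO FO replicate 1. The log2 differences without cKO MZ replicate 1 were 1.93 for Dusp4, 0.84 for Dusp7 and 1.43 for Dusp10. As a ratio of counts per kilobase within a library, Dusp16 over Dusp10 was 0.60 and 0.79 in WT FO, 0.70 and 0.73 in cKO FO, 6.27 and 4.96 in WT MZ, and 9.72 and 9.60 in cKO MZ.

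Dusp22, the atypical member, is known as a regulator of JNK and of T cell receptor signalling and lies at chr13:30659999-30711231. It had 643 and 721 (WT) and 606 and 785 (cKO) normalized counts in FO libraries, against 614 and 811 (WT) and 884 and 730 (cKO) in MZ libraries. The groups overlapped, with log2 differences of -0.05 ± 0.19 (WT) and -0.22 ± 0.19 (cKO) (limma, adjusted p = 0.891 and 0.451).

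**Figure D2:**
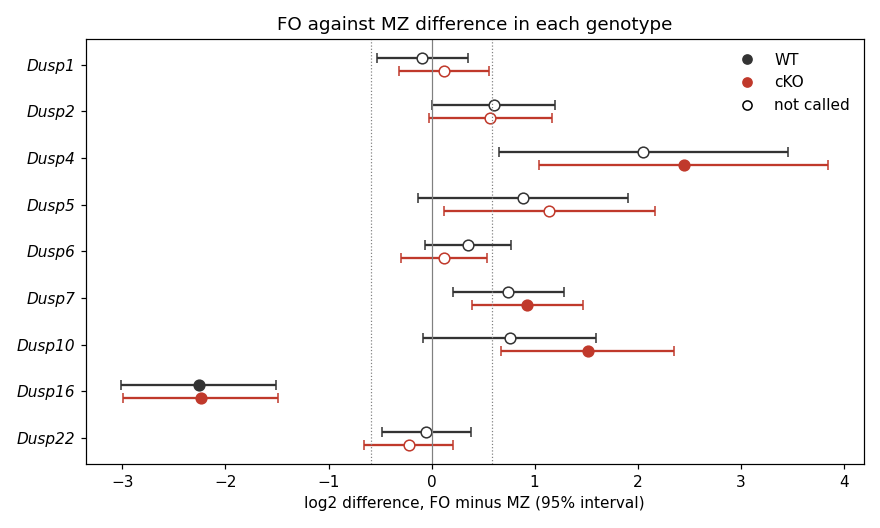
Log2 difference, FO minus MZ (horizontal axis, limma estimate with its 95% interval), of the 9 genes in WT (black) and cKO (red); filled points were called, open points were not, and dotted lines mark 1.5-fold. Dusp16 lies at -2.26 and -2.24, Dusp4 at 2.05 and 2.45, and the intervals of WT and cKO overlap for each gene.

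Levels can be set side by side between genes only per length, so normalized counts were divided by the kilobases of annotated exon. In the 4 FO libraries the median count per kilobase was 4928 for Dusp2, 2114 for Dusp1, 962 for Dusp6 and 718 for Dusp4, and no 2 neighbours in this order overlapped. Dusp5, Dusp7, Dusp10, Dusp22 and Dusp16 followed with medians of 411, 300, 168, 134 and 123, where Dusp4 overlapped Dusp5, Dusp5 overlapped Dusp7, and Dusp10, Dusp22 and Dusp16 overlapped each other. In the 4 MZ libraries Dusp2, Dusp1 and Dusp6 again had the highest medians, 3466, 2193 and 915, with ranges that were apart. Dusp16 came next with 548 per kilobase and overlapped Dusp6. Dusp5, Dusp7, Dusp22 and Dusp4 lay at 188, 173, 151 and 151 with overlapping ranges, and Dusp10 at 74.8 overlapped each of these but Dusp7. Of the summed count per kilobase of the 9 genes, Dusp2 made up 46.7% to 60.9% in FO and 39.9% to 52.4% in MZ. Dusp16 made up 0.81% to 1.70% in FO and 5.50% to 10.1% in MZ, and Dusp4 2.75% to 8.40% in FO and 0.73% to 2.65% in MZ.

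**Figure D3:**
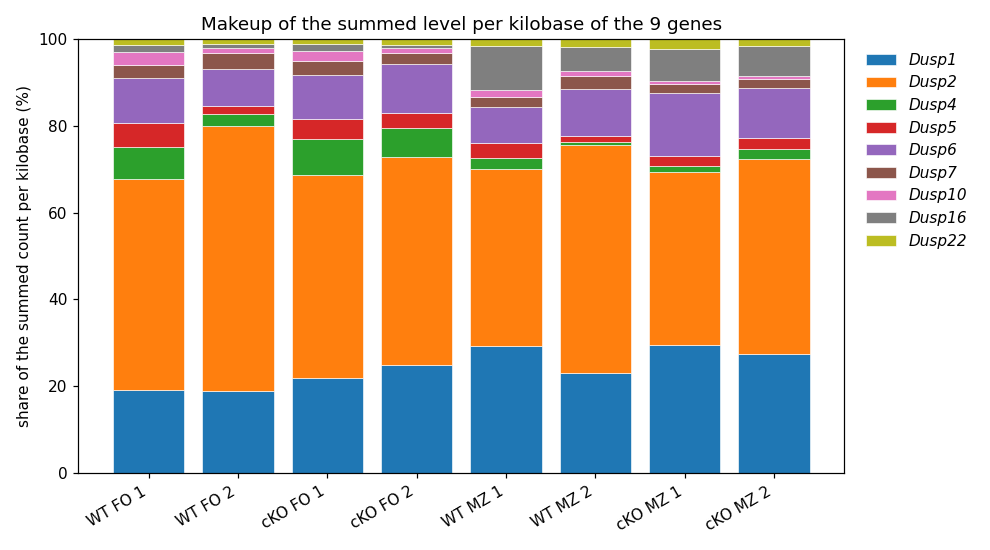
Share of the summed normalized count per kilobase of exon (vertical axis, percent) that each of the 9 genes made up in each library, with the 4 FO libraries at the left and the 4 MZ libraries at the right. Dusp2 and Dusp1 fill most of every bar, and the Dusp16 share is 0.81% to 1.70% in FO and 5.50% to 10.1% in MZ.

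To see whether the loss of Gtf2i was accompanied by other levels of these genes, cKO was compared with WT within each subset. No phosphatase was called by limma in FO cells, where 0.0677% of all tested genes were called. An unadjusted p under 0.05 was given for 0 of the 9 in FO and for 382 of the 14761 genes tested. None was called in MZ cells, where 0.0339% of all tested genes were called and an unadjusted p under 0.05 was given for 1 of the 9 and for 596 of the genes tested. By edgeR and DESeq2 0 were called in either subset as well, and in MZ 1 gene (Dusp10) by edgeR and 2 (Dusp6 and Dusp10) by DESeq2 had an unadjusted p under 0.05. The log2 differences, cKO minus WT, ranged from -0.20 to 0.75 in FO and from -0.91 to 0.40 in MZ. In FO the groups were apart for 1 gene, against 24% of all tested genes. This was Dusp4, with 2122 and 2112 normalized counts in cKO against 1820 and 872 in WT, a log2 difference of 0.75 ± 0.60 (limma, adjusted p = 1) and a 95% interval of -0.65 to 2.15. In MZ the groups were apart for 3 genes, against 34.5% of all tested genes. Dusp10 was lower in both cKO MZ libraries (162 and 183) than in the WT MZ libraries (384 and 273), with a log2 difference of -0.91 ± 0.36 and a limma adjusted p of 0.998, and was the 1 gene of the 9 with an unadjusted p under 0.05. Dusp7 had a log2 difference of -0.39 ± 0.23 and Dusp6 of 0.40 ± 0.18 in MZ (limma, adjusted p = 0.998 for each).

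Whether the FO and MZ difference itself changed with genotype was tested by an interaction term. It was called for 0 of 9 phosphatases by limma, DESeq2 and edgeR, where 0% of all tested genes were called, and 0 of 9 had an unadjusted p under 0.05 by any of these tools. Dusp10 had the lowest unadjusted p, 0.178, with a cKO minus WT difference in the FO minus MZ contrast of 0.75 ± 0.51 on the log2 scale and a 95% interval of -0.43 to 1.94. For Dusp4 this was 0.39 ± 0.85, with an interval of -1.59 to 2.37, and for Dusp16 0.02 ± 0.46, with an interval of -1.05 to 1.08. So the calls of Dusp4, Dusp7 and Dusp10 in cKO and not in WT were not shown to be a difference between the genotypes.

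The spread between replicates was wide for several of the phosphatases. Over the 10178 genes whose normalized count averaged 100 or more, the median absolute log2 difference between the 2 libraries of a group was 0.18 and 0.16 in the FO and MZ groups of WT and 0.14 and 0.11 in those of cKO. For the 9 phosphatases the medians, in the same order, were 0.68, 0.42, 0.37 and 0.18. In WT FO 6 of the 9 lay beyond the 90th percentile of all these genes, which was 0.59, and in the other groups 3, 4 and 3 did. Dusp4, Dusp5, Dusp10 and Dusp16 were higher in replicate 1 than in replicate 2 in both WT groups. Dusp5 did so by 1.11 and 1.19 on the log2 scale in WT FO and WT MZ, and Dusp4 by 1.06 and 1.81. Dusp2 and Dusp7 were lower in replicate 1 in the same libraries, by -0.68 and -0.71 in WT FO.

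Genes known to be induced while tissue is handled differed between the same libraries. The following were chosen after their values were seen. Atf3, a stress-induced transcription factor, had 1421 and 147 (WT) and 1306 and 574 (cKO) normalized counts in FO libraries, against 6474 and 693 (WT) and 2295 and 3947 (cKO) in MZ libraries. Nr4a1, an immediate early gene of antigen receptor signalling, had 16637 and 6551 (WT) and 19310 and 12100 (cKO) in FO libraries, against 23203 and 8711 (WT) and 11640 and 21513 (cKO) in MZ libraries. Both were thus higher in replicate 1 of WT FO, WT MZ and cKO FO and lower in replicate 1 of cKO MZ. Hspa1b, a heat shock protein gene, had 3693 and 97.6 in cKO FO. The summed count of the 16 handling-induced genes was 150683 and 125865 (WT) and 167448 and 134614 (cKO) in FO libraries, against 179982 and 131287 (WT) and 142265 and 177532 (cKO) in MZ libraries. Of the 15 that were tested, 1 (Ier2) was called higher in FO and 0 higher in MZ within each genotype. Over both genotypes 3 were called higher in FO (Dnajb1, Hspa1b and Ier2) and 2 higher in MZ (Jun and Zfp36). Of all tested genes 7.45% and 10.9% were. The summed count of 6 plasma cell markers, Irf4 and Xbp1 among them, which B cells also express, was 32667 and 15033 in WT FO and 42099 and 21411 in WT MZ. The part of these differences in the phosphatase values was not tested.

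**Figure D4:**
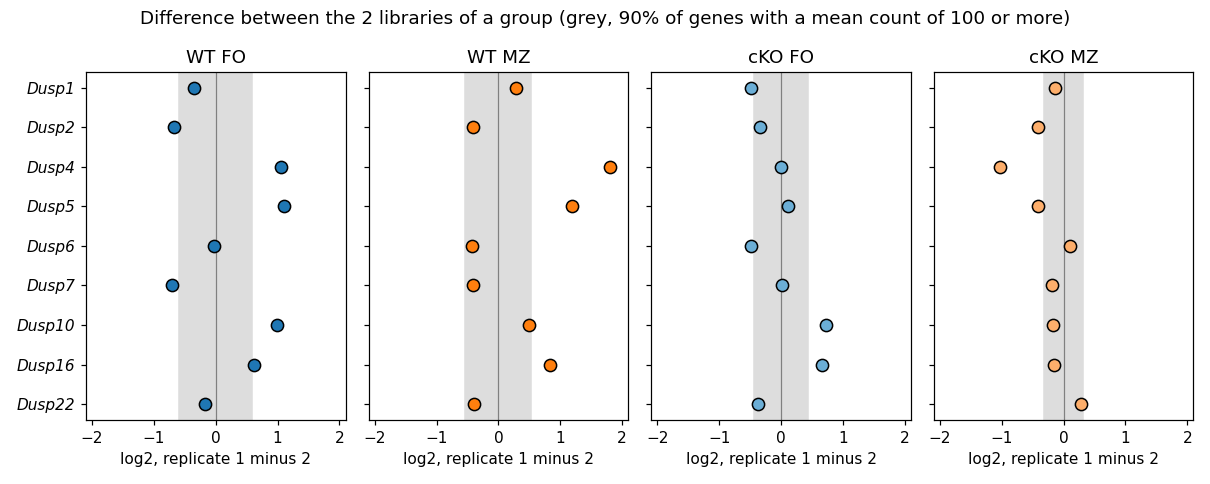
Log2 difference between replicate 1 and replicate 2 of each group (horizontal axis) for the 9 genes; the grey band holds 90% of the 10178 genes with a mean count of at least 100. Dusp4 and Dusp5 lie to the right of the band in WT FO and WT MZ and Dusp4 to the left of it, at -1.03, in cKO MZ.

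The other genes of the pathway were taken from 8 lists, and the values of the genes named were FO minus MZ log2 differences in WT and then in cKO. Of 20 other dual-specificity phosphatases 12 could be tested and 2 were called higher in FO in each genotype, with 0 higher in MZ. Over all tested genes 4.62% (WT) and 5.54% (cKO) were called higher in FO, and 7.41% and 8.18% higher in MZ. The counts of every list are to be read beside these shares, and no list was tested as a set. Dusp3, also called VHR, lay between 411 and 727 normalized counts in the FO libraries and between 75.3 and 122 in the MZ libraries, a difference of 2.52 and 2.79 (limma, adjusted p = 0.00131 and 0.000729). Ssh2, a phosphatase of the actin regulator cofilin, differed by 1.15 and 1.30 (adjusted p = 0.0169 and 0.00914). The median of this list was 0.23 in WT and 0.36 in cKO.

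Of the MAP kinases themselves 10 of 14 were tested, and Mapk11 and Mapk12, the beta and gamma forms of p38, were called higher in FO in both genotypes, with 0 higher in MZ. Over all tested genes 4.62% (WT) and 5.54% (cKO) were called higher in FO. Mapk11 differed by 2.25 and 2.47 (limma, adjusted p = 8.68e-05 and 5.12e-05), and had 3998 to 4584 normalized counts in FO and 717 to 1020 in MZ. Mapk12 differed by 2.55 and 2.78 (adjusted p = 0.00200 and 0.00122). Mapk3 (ERK1) differed by 0.66 and 0.53, Mapk8 (JNK1) by 0.37 and 0.55, and Mapk14 (p38 alpha) by 0.25 and 0.35, none called within a genotype. Over both genotypes Mapk3 was called as well (limma, adjusted p = 0.0121).

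Of 26 kinases upstream of the MAP kinases, all tested, 2 were called higher in FO and 1 higher in MZ in WT, and 2 and 2 in cKO. In the same order the shares over all tested genes were 4.62% and 7.41% in WT, and 5.54% and 8.18% in cKO. They also stand beside the next 2 lists. Map4k4, a kinase upstream of JNK, was higher in FO by 0.83 and 0.90, and Map3k12, another one, was higher in MZ, at -1.21 and -0.94. Of 21 tested RAS proteins and regulators 5 were called higher in FO and 1 higher in MZ in WT, and 4 and 2 in cKO. Rasa3, a GTPase activating protein, had differences of 1.30 and 1.43, and Rasgrp2, an exchange factor, of 0.89 and 0.93. Of 6 tested Sprouty and Spred feedback inhibitors of the RAS to ERK path 1 was called higher in FO in each genotype, Spry2 in WT and Spred2 in cKO, and Spred3, with 37 normalized counts or fewer, was called higher in MZ in cKO. The differences were 1.75 and 0.80 for Spry2, 1.36 and 1.56 for Spred2 and -1.40 and -1.48 for Spred3, and all 3 were called over both genotypes.

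Further down the path, 1 of 10 kinases activated by MAP kinases was called higher in FO in each genotype, and 2 in WT and 1 in cKO were higher in MZ. Here and for the lists that follow, the shares over all tested genes were 4.62% (WT) and 5.54% (cKO) higher in FO. Higher in MZ were 7.41% and 8.18%. Rps6ka5 (MSK1) had differences of 0.91 and 1.17 and Rps6ka1 (RSK1) of -1.17 and -1.05. Of 22 tested transcription factors that respond to MAP kinases 1 was called higher in FO and 3 higher in MZ in each genotype. Ier2, an immediate early gene that is also among the handling-induced genes, had 0.92 and 0.73. Elk3, a partner of serum response factor, had -0.76 and -0.77, and Myc -1.80 and -1.42. Of 7 tested other phosphatases that act on MAP kinases 0 were called by limma within a genotype, although Ppm1a had differences of 0.44 and 0.39 with adjusted p of 0.0269 and 0.0365, under the fold threshold. The list medians were 0.09 and 0.08 for the upstream kinases, 0.28 and 0.25 for the RAS list, 0.75 and 0.71 for the Sprouty list and 0.01 and 0.01 for the transcription factors, beside 0.00 over all tested genes.

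**Figure D5:**
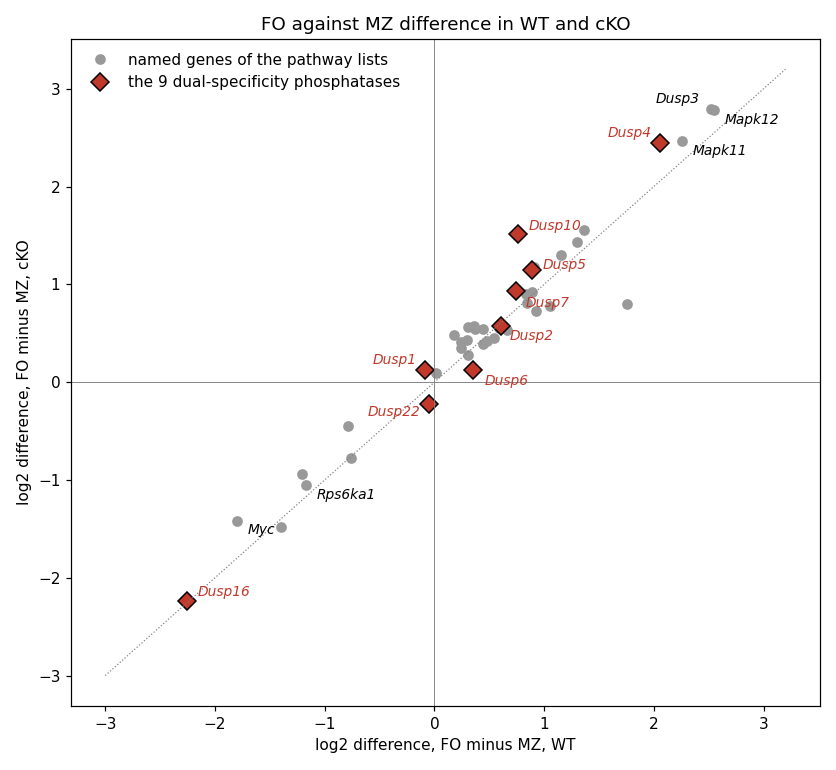
Log2 difference, FO minus MZ, in WT (horizontal axis) against cKO (vertical axis) for the 9 phosphatases (red diamonds) and the named genes of the 8 pathway lists (grey points); the dotted line marks equal values. Dusp16 lies at -2.26 and -2.24, and Dusp10, at 0.76 and 1.51, lies above the line.

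For the gene called in both genotypes, Dusp16, the most alike patterns among the tested genes were sought as a description. Over the 8 libraries the highest Pearson correlations of log2 counts were with Pyroxd2 (0.997), Lilrb4a (0.997) and Rrbp1 (0.996). Pyroxd2 had 34.2 to 47.9 normalized counts in FO and 95.1 to 134 in MZ, Lilrb4a, an inhibitory receptor gene, 88.5 to 152 in FO and 648 to 1351 in MZ, and Rrbp1, a protein of the rough endoplasmic reticulum, 2929 to 3707 in FO and 6104 to 8422 in MZ. The 8 points share the split into subsets, so a high correlation follows for many genes that differ between FO and MZ.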

How the data were processed

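RNA-seq was available for 8 libraries, 2 for each subset (FO, MZ) and genotype (WT, cKO). Per the paper and the labels, total RNA was depleted of ribosomal RNA and sequenced as 50-base single-end reads, which the authors aligned with HISAT2 to mm10, counted on genes (featureCounts and HTSeq are named) and normalized with DESeq2. Versions and the strand setting are not given in the sources used here. The deposited signal is a table of read counts divided by DESeq2 size factors, so values carry no correction for gene length. After 256343 blank lines were left out it held 27928 genes, and 100% of values came out as whole reads (within 0.1) when multiplied by the size factors. The 8 ATAC-seq samples were not analysed here.

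Values were fitted as log2(normalized count + 1) with limma 3.58.1 in R 4.3.3 (eBayes with trend), the 4 groups in 1 model of 8 libraries, for 14761 genes with a mean count of at least 10. Contrasts were FO against MZ in WT, in cKO and averaged over both, cKO against WT in each subset, and the interaction. A call needed an adjusted p (Benjamini-Hochberg, over all tested genes) no larger than 0.05 and a 1.5-fold change. DESeq2 1.42.0 and edgeR 4.0.16 (quasi-likelihood) on the recovered reads, other scalings and filters, a replicate block and each library left out were alternatives. In counts simulated for FO against MZ in WT over 14761 genes, limma called 83 of 100 genes changed 4-fold, 53 of 100 changed 2-fold and 7 unchanged ones. No other genes were changed there, and these only in WT FO, whereas limma called 1776 genes in the data. The rates were not worked out at the replicate spread of the phosphatases, so they do not give the power for these. With 21546552 to 25083552 reads per library, each of the 9 genes had 163 reads or more in every library.

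Gene positions and exon lengths are from GENCODE M21 (GRCm38), in which 27872 identifiers were found, and promoter sequences from RefSeq (GRCm38.p6). For Dusp1 and Dusp10 the RefSeq promoter lies within the GENCODE span of the gene, so motif places there refer to the RefSeq start. The genes, pathway lists and marker lists were chosen with earlier results of these data known. Named from each pathway list were genes among the 4 with the smallest p for FO against MZ over both genotypes, with Mapk3, Mapk8 and Mapk14 (some genes that the rule also names are not reported here), and for each phosphatase called in both genotypes the 3 genes with the highest correlation.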

Additional observations from a re-analysis of the deposited data

How the results depend on the processing

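The number of phosphatases called for FO against MZ in WT was 1, and it was 3 by DESeq2 (Dusp2, Dusp7 and Dusp16) and 1 to 2 when a library was left out. In cKO it was 4, and 1 to 5 when a library was left out, with Dusp16 called each time. It was 1 without cKO FO replicate 1, cKO MZ replicate 1 or cKO MZ replicate 2, and 2 without cKO FO replicate 2. Over both genotypes it was 6, and 4 to 6 over all alternatives, which each called Dusp4, Dusp10 and Dusp16 and which, apart from the 2-fold cutoff, called Dusp7. For cKO against WT and the interaction it was 0 in every alternative run, and since the log2 differences have wide intervals this does not show that the values were alike.

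The replicate numbers were not taken as pairs, since no label says what they share and not every pair of groups deviated together. The correlation over 14761 genes of the differences between replicate 1 and replicate 2 was 0.591 for WT FO with WT MZ, 0.294 for WT FO with cKO FO and 0.161 for WT MZ with cKO FO, and -0.172, -0.296 and -0.0015 for cKO MZ with WT FO, WT MZ and cKO FO. With the replicate block 4 phosphatases were called in WT (Dusp2, Dusp4, Dusp7 and Dusp16), 4 in cKO and 6 over both genotypes. Over all tested genes the block gave 1973, 2262 and 2861 calls in the same order. With the cKO MZ numbers exchanged, an alternative chosen after seeing the data, the replicate block gave 5 in WT and 5 in cKO. Over all tested genes it then gave 2262 and 2585.

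Over all tested genes the calls were 1776 in WT and 1014 with only the 4 libraries compared, and 2026 in cKO, 1325 at 2-fold and 1073 to 2119 with a library left out. For cKO against WT they were 10 in FO, with 4 to 25 over the alternatives, and 5 in MZ, with 4 to 48, DESeq2 giving the most in each. Over both genotypes they were 2711, 4926 with no fold cutoff and 1647 at 2-fold.

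Of 788 values of single genes recomputed, 37 changed sign. These take in the interaction for Dusp4 and Dusp10 only. Under quantile normalization FO minus MZ turned to -0.046 for Dusp1 and -0.0046 for Dusp6 in cKO and to -0.12 for Dusp1 over both genotypes, and for Dusp5 cKO minus WT in MZ turned to -0.065 by DESeq2 and -0.060 by edgeR. With a library left out, FO minus MZ ranged in WT from -0.27 to 0.088 for Dusp1 and from -0.25 to 0.15 for Dusp22, in cKO from -0.12 to 0.37 for Dusp1 and from -0.12 to 0.36 for Dusp6, and over both from -0.10 to 0.14 for Dusp1. In FO, cKO minus WT ranged from -0.65 to 0.34 for Dusp10, -0.43 to 0.23 for Dusp16, -0.54 to 0.14 for Dusp2, -0.17 to 0.21 for Dusp22, -0.27 to 0.84 for Dusp5, -0.069 to 0.41 for Dusp6 and -0.56 to 0.15 for Dusp7. In MZ it ranged from -0.063 to 0.23 for Dusp1, -0.53 to 0.30 for Dusp16, -0.38 to 0.041 for Dusp2, -0.013 to 0.39 for Dusp22, -0.55 to 1.26 for Dusp4 and -0.57 to 0.63 for Dusp5, and the interaction from -0.51 to 1.30 for Dusp4. Outside the 788 values, the interaction also took both signs for every other gene but Dusp10. It ranged from -0.03 to 0.45 for Dusp1, -0.37 to 0.31 for Dusp2, -0.34 to 0.85 for Dusp5 and -0.47 to 0.0064 for Dusp6. For Dusp7 the range was -0.17 to 0.54, for Dusp16 -0.40 to 0.44 and for Dusp22 -0.37 to 0.03. The cause of these changes was not tested.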

Other observations

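Some ratios of counts per kilobase were taken within each library, where the scaling between libraries does not enter. Dusp6 over Dusp7, both cytoplasmic phosphatases for ERK, was 3.52 and 2.20 in WT FO, 3.04 and 4.27 in cKO FO, 3.63 and 3.66 in WT MZ, and 6.94 and 5.73 in cKO MZ, so that only the cKO MZ libraries lay above all others. Dusp4 over Dusp16 was 4.33 and 3.17 in WT FO, 5.32 and 8.36 in cKO FO, 0.26 and 0.13 in WT MZ, and 0.19 and 0.35 in cKO MZ. The FO and MZ libraries were apart in this ratio. The summed count per kilobase of the 9 phosphatases was 9031 and 11589 in WT FO, 9219 and 11407 in cKO FO, 7814 and 8090 in WT MZ, and 7104 and 8393 in cKO MZ, with every FO library above every MZ library. These ratios and sums were chosen after the values of the genes were seen and were not tested.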
